A study of Danio rerio with 12 samples.

Results

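Expression in the sinus venosus (SV) was compared with expression in the ventricle (V) of wild type (WT) adult zebrafish. The comparison used 4 of the 12 libraries of the series, the 2 WT SV libraries and the 2 WT V libraries, and all 22158 genes that were counted. The labels of all 12 libraries, WT and mutant, give the AB/TU background, while the study's methods give AB/TL for WT fish. Fish of every group were between 6 months and 1.5 years old, and each library was made from tissue pooled from 20 fish. The other 8 libraries, 2 per group, came from the WT atrium (A), the WT bulbus arteriosus (BA), and the SV and V of fish carrying the aco allele of the nuclear receptor gene *nr2f1a*. All 12 libraries entered 1 model, so that they shared 1 estimate of the spread. For the aco libraries the titles and the genotype label give the mutant, while another label gives WT, and they were used as mutant. The paper's methods describe libraries of several batches and of mixed types. The labels do not give the batch of each library, so batch and tissue cannot be told apart. The study calls the libraries experimental replicates of pooled tissue, and no source used here says whether the 2 pools of a group were dissected and prepared separately, so the p-values measure the spread between these libraries, part of which may be technical. Per the study's methods each heart was split into its chambers before pooling. SV and V libraries may therefore share fish, and the main model did not pair them.

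The SV is the thin-walled chamber that collects venous blood and passes it to the A, and the V is the thick muscular pump that ejects it through the BA, an outflow chamber of elastic tissue and smooth muscle. In fish the junction of SV and A holds the pacemaker region and ganglia of the intracardiac nervous system, and the common cardinal and hepatic veins join the heart at the SV. Cardiomyocytes of the V run on oxidative metabolism and are packed with sarcomeres and mitochondria. *nr2f1a* belongs to the COUP-TF genes, which are known for setting atrial identity in the zebrafish heart.

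Of 19145 genes with enough counts to be tested, 6832 differed between WT SV and WT V (35.7%; edgeR's quasi-likelihood test, Benjamini-Hochberg adjusted p under 0.05). Of these, 3721 were higher in SV (19.4% of genes tested) and 3111 were lower (16.2%), so that 54.5% of the genes called were higher. The higher genes had the larger fitted differences: 810 were higher by at least 64-fold and 142 were lower by at least 64-fold. At 4-fold the counts were 2884 higher and 1862 lower. These fold classes include genes with no count in a tissue, for which the data give only a lower bound of the fold. In the Hox gene list described below, the median log2 fold change was 6.035 as fitted. It was 3.565 with such members set to their bounds. How the fold classes change with such bounds was not tested. The median log2 fold change of all genes tested, always SV over V here, was 0.21. In 75 of the called genes the SV and V libraries overlapped. Of all genes tested, called or not, 13543 (70.7%) had SV and V libraries that did not overlap. A lack of overlap in a gene named below was therefore common among all genes.

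The split depended on the scaling and on single libraries. Scaled to library totals, 7116 genes were called higher and 1756 lower (80.2% higher), and the median of all genes moved by 0.82 on the log2 scale, to 1.03. Without WT V replicate 1 the number of genes called was 4065, of which 1657 were higher. Without WT SV replicate 1, 2410 genes were called higher, and without WT SV replicate 2, 2068 were called lower. The libraries of the contrast held 36088965 and 37508880 counts in WT SV and 60532949 and 56291321 counts in WT V. A few gene groups took very different shares of these totals. Transcripts of 20 listed erythrocyte genes made up 12.5% and 23.6% of all counts in WT SV, against 0.577% and 0.832% in WT V. That list lacks the globin gene *ba1l*, which held a further 1246522 and 1736349 counts in WT SV, against 62971 and 72533 counts in WT V. The 13 mitochondrially encoded genes made up 5.0% and 2.51% of all counts in WT SV, against 20.2% and 15.3% in WT V. The number of genes called without the 20 listed erythrocyte genes, an alternative chosen after seeing the data that kept *ba1l*, was 7085. Values below are CPM, read counts scaled to the TMM-adjusted size of the library, and the fitted fold changes also take out 1 factor of unwanted variation (RUVs), which stood at -1.72 in WT V replicate 1 and between -0.21 and 0.38 in the other libraries of the contrast. A fitted fold change can therefore differ from the ratio of the CPM values beside it. The tissue labels were set beside marker genes. *myl7*, *tnnt2a* and *vmhcl*, given with their values further on, were high in V, and of the pacemaker genes that mark the SV in other vertebrates *shox2* and *isl1* were present in SV at under 10 CPM, while *hcn4* was under 1 CPM in SV. *myl7* and *tnnt2a* were also high in A, and *shox2* had more CPM in A than in SV. These genes therefore cannot verify the SV label. In bulk tissue, fewer cells of a type and less RNA per cell cannot be told apart.

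**Figure D1:**
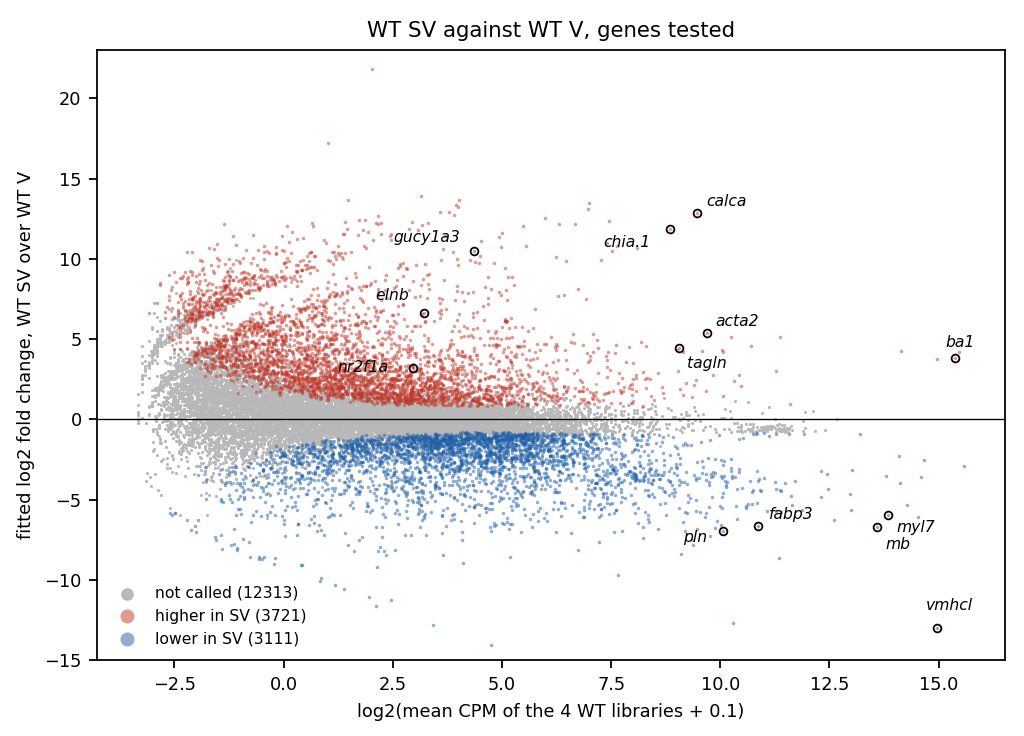
Each point is 1 of 19145 genes, with its mean level over the 4 libraries on the x axis (log2 CPM) and its fitted log2 fold change of WT SV over WT V on the y axis. Coloured points are the 3721 genes called higher and the 3111 called lower in SV (adjusted p under 0.05), with example genes labelled; the genes farthest above 0 lie at low mean levels and the genes farthest below 0 extend to high ones.

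The contractile apparatus of heart muscle was much lower in SV. Of 15 tested genes of the thick filament and its light chains, 10 were lower and 3 higher, with a median log2 fold change of -5.2, where 16.2% of all genes tested were lower and 19.4% higher. Of 38 genes of the thin filament, Z-disc and titin, 27 were lower and 7 higher (median -5.0). The first list took 0.145% and 0.0852% of all counts in WT SV, against 3.18% and 9.35% in WT V, and the second 0.431% and 0.223% of all counts in WT SV, against 5.25% and 5.53% in WT V.

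*myl7*, the regulatory myosin light chain of cardiomyocytes, had 652 and 393 CPM in WT SV, against 19287 and 37964 CPM in WT V (log2 fold change -5.92 ± 1.01, adjusted p = 0.0011). The gene *cmlc1*, an essential light chain, had 910.4 and 729 CPM in WT SV, against 38305 and 54186 CPM in WT V (log2 fold change -6.05 ± 0.97, adjusted p = 7.4e-04). *vmhcl*, a ventricular myosin heavy chain, showed one of the largest differences of all, with 10.7 and 5.4 CPM in WT SV, against 22124 and 106087 CPM in WT V (log2 fold change -12.96 ± 1.46, adjusted p = 1.1e-04). For each of these genes both SV libraries lay far below both V libraries, although the V replicates themselves differed several-fold for *vmhcl*. Its neighbour in sequence *vmhc* had 10.4 and 8.15 CPM in WT SV, against 221 and 2099 CPM in WT V (log2 fold change -6.91 ± 0.9, adjusted p = 2.2e-04). Reads that align to both copies were not counted, so the split between *vmhc* and *vmhcl* is uncertain.

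*tnnt2a*, cardiac troponin T, reached 433 and 273 CPM in WT SV, against 7688 and 11900.2 CPM in WT V (log2 fold change -4.81 ± 0.71, adjusted p = 4.8e-04). *actc1a*, a cardiac alpha-actin, had 454 and 188 CPM in WT SV, against 16517 and 15386 CPM in WT V (log2 fold change -5.66 ± 0.85, adjusted p = 5.0e-04). *acta1b*, another sarcomeric actin, had 227 and 59.6 CPM in WT SV, against 14611 and 9862 CPM in WT V (log2 fold change -6.25 ± 0.72, adjusted p = 1.2e-04). Troponin T and both actins were lower in each SV library than in each V library. The giant spring protein gene *ttn.1* had 93.3 and 50.3 CPM in WT SV, against 1722 and 4313 CPM in WT V (log2 fold change -5.5 ± 0.76, adjusted p = 3.1e-04). None of these SV values came near the V values. The intermediate filament gene *desma* had 89.5 and 84.7 CPM in WT SV, against 1651 and 4327 CPM in WT V (log2 fold change -5.36 ± 0.68, adjusted p = 1.9e-04). *csrp3*, a muscle LIM protein of the Z-disc, had 11.07 and 5.12 CPM in WT SV, against 841 and 1739 CPM in WT V (log2 fold change -7.51 ± 1.02, adjusted p = 2.8e-04). *nrap*, a scaffold of the intercalated disc that also stands in the skeletal muscle list, had 0.297 and 0.0932 CPM in WT SV, against 23.3 and 122 CPM in WT V (log2 fold change -8.59 ± 1.18, adjusted p = 3.1e-04).

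Among the sarcomere genes that were higher in SV were forms known from the atrium and from skeletal muscle. *myh6*, the atrial myosin heavy chain, had 304 and 202 CPM in WT SV, against 23.2 and 121 CPM in WT V (log2 fold change 1.56 ± 0.39, adjusted p = 0.010), and it had 1645 and 8449.7 CPM in WT A, far above both. This call was lost without WT SV replicate 1, without WT V replicate 1, without the RUVs factor and in fits of the 4 or the 8 WT libraries alone. *tnnc1b*, a second cardiac troponin C, had 452 and 277 CPM in WT SV, against 46.9 and 105 CPM in WT V (log2 fold change 2.01 ± 0.44, adjusted p = 0.0047), and 4334 and 12049.9 CPM in WT A. *actc1b*, an actin of skeletal muscle in zebrafish, had 379 and 102 CPM in WT SV, against 2.31 and 1.35 CPM in WT V (log2 fold change 7.49 ± 1.17, adjusted p = 6.6e-04). *tpm4b*, a tropomyosin, had 22.2 and 14 CPM in WT SV, against 0.59 and 2.11 CPM in WT V (log2 fold change 3.67 ± 0.48, adjusted p = 2.3e-04). All 4 genes separated the SV from the V libraries, with *myh6* the closest to overlap. The 3 higher calls in the thick filament list fell to 0 without WT SV replicate 1, 0 without WT V replicate 1 and 1 without WT V replicate 2, and the 7 in the thin filament list fell to 4 and 3 without WT SV replicate 1 and WT V replicate 1.

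**Figure D2:**
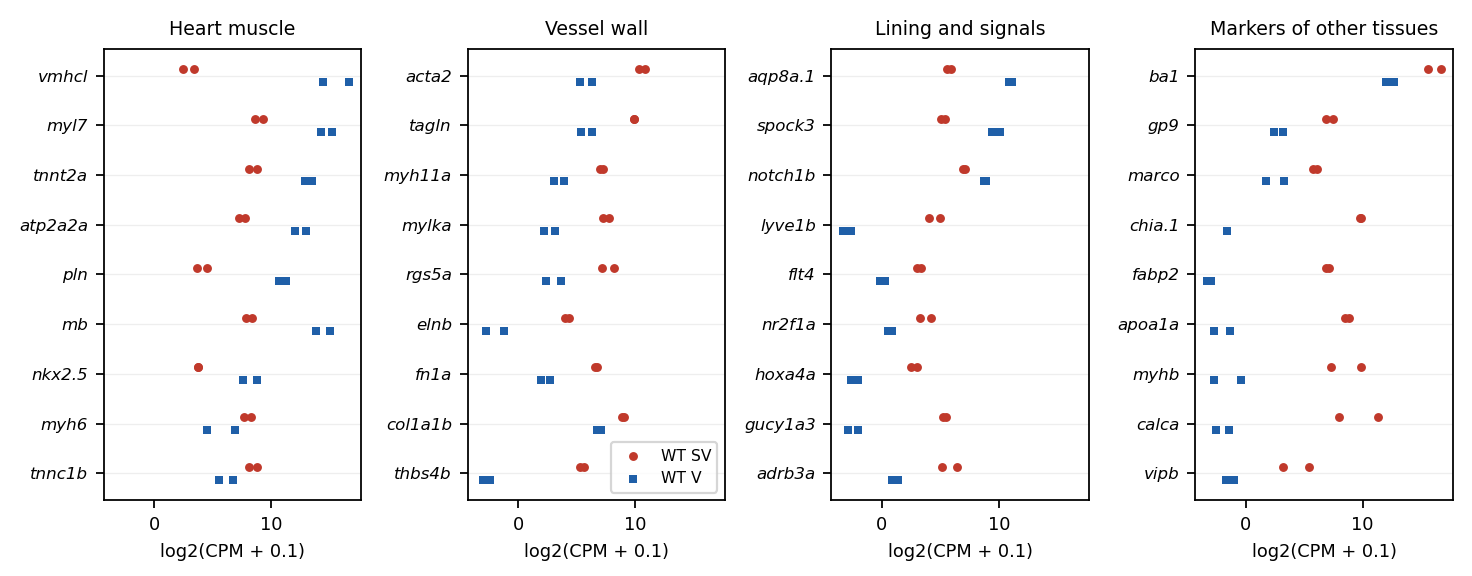
Each panel plots log2(CPM + 0.1) of a group of genes in the 2 WT SV libraries (circles) and the 2 WT V libraries (squares), 1 gene per row. Circles and squares are apart for every gene plotted: *vmhcl* lies at 10.7 and 5.40 CPM in SV, against 22124 and 106087 CPM in V, and *acta2* lies at 1915 and 1271 CPM in SV, against 81.9 and 39.7 CPM in V.

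Genes of calcium handling and excitation were lower in SV too. Of 22 tested calcium handling genes 15 were lower in SV and 1 was higher (median log2 fold change -4.27), and of 23 conduction and ion channel genes 14 were lower and 4 higher (median -3.98). Phospholamban, the brake on the calcium pump of the sarcoplasmic reticulum (*pln*), had 22.1 and 12.5 CPM in WT SV, against 1659 and 2554 CPM in WT V (log2 fold change -6.93 ± 0.74, adjusted p = 8.3e-05). The pump itself, *atp2a2a*, had 215 and 151 CPM in WT SV, against 4209 and 8231 CPM in WT V (log2 fold change -5.31 ± 0.78, adjusted p = 4.4e-04). The release channel *ryr2b* had 5.97 and 7.27 CPM in WT SV, against 287 and 403 CPM in WT V (log2 fold change -5.87 ± 0.92, adjusted p = 6.5e-04). Each was far lower in both SV libraries than in either V library.

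*casq2*, which buffers calcium in the sarcoplasmic reticulum, had 35.15 and 24.8 CPM in WT SV, against 899.8 and 2281 CPM in WT V (log2 fold change -5.83 ± 0.75, adjusted p = 2.0e-04). The sodium-calcium exchanger *slc8a1a* had 58.2 and 34.9 CPM in WT SV, against 959 and 1409.6 CPM in WT V (log2 fold change -4.73 ± 0.75, adjusted p = 7.0e-04). The pore of the L-type calcium channel, *cacna1c*, had 14.1 and 12 CPM in WT SV, against 232 and 239.9 CPM in WT V (log2 fold change -4.05 ± 0.33, adjusted p = 3.7e-05). Its replicates lay close together in each tissue. *kcnh6a*, the potassium channel of cardiac repolarisation in zebrafish, had 16.8 and 16.1 CPM in WT SV, against 780.3 and 1462 CPM in WT V (log2 fold change -6.39 ± 0.61, adjusted p = 5.2e-05). The channel *kcnh6a* was nearly equal in the 2 SV libraries. The connexin *gja5a* had 0.526 and 0.233 CPM in WT SV, against 83.4 and 32.1 CPM in WT V (log2 fold change -6.58 ± 0.67, adjusted p = 6.6e-05). The connexin *gja3* had 1.12 and 0.838 CPM in WT SV, against 20.3 and 53 CPM in WT V (log2 fold change -5.39 ± 0.69, adjusted p = 2.0e-04). The sodium channel subunit *scn4ba* had 0.297 and 0.769 CPM in WT SV, against 41.2 and 63 CPM in WT V (log2 fold change -6.67 ± 0.51, adjusted p = 3.6e-05). These channels were nearly silent or low in SV beside V.

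Both potassium channel genes described next had no count in SV. The inward rectifier *kcnj14* had 0 counts in both WT SV libraries and 19.2 and 23.1 CPM in WT V (at least 305-fold lower, adjusted p = 5.2e-05, with 3 counts per library taken as the floor). *kcnj12a*, another inward rectifier, also had 0 counts in WT SV and 0.933 and 1.5 CPM in WT V (at least 17.6-fold lower, adjusted p = 0.0075). Connexin 43 (*cx43*), the gap junction protein also found in vessels, had 97.8 and 55 CPM in WT SV, against 11.4 and 16.1 CPM in WT V (log2 fold change 2.51 ± 0.47, adjusted p = 0.0021). *kcnj5*, an atrial potassium channel subunit, had 0.366 and 0.443 CPM in WT SV, against 0.0246 and 0.0294 CPM in WT V (ratio of SV to V 15.1, 95% interval 3.88 to 129.6, adjusted p = 0.014), and 6.18 and 35.3 CPM in WT A, so that SV was above V but far below A.

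Genes of energy metabolism were lower in SV in most members of every list. Of 85 tested nuclear genes of oxidative phosphorylation 82 were lower in SV and 1 was higher (median log2 fold change -3.51), and all 13 mitochondrially encoded genes were lower (median -3.31). Fatty acid oxidation genes were lower in 27 of 30 (median -3.94), citric acid cycle genes in 23 of 28 (median -3.73) and glycolysis and lactate genes in 27 of 38 (median -2.88). The nuclear oxidative phosphorylation genes took 0.892% and 0.931% of all counts in WT SV, against 7.37% and 5.63% in WT V. These 5 counts of lower genes stayed within 1.5 times when any 1 of the 4 libraries was left out.

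*ndufa4*, a subunit of the respiratory chain, had 45 and 16.7 CPM in WT SV, against 823 and 2095 CPM in WT V (log2 fold change -5.74 ± 0.91, adjusted p = 7.0e-04). *cox4i1l*, a cytochrome c oxidase subunit, had 115 and 79.2 CPM in WT SV, against 2927 and 5497 CPM in WT V (log2 fold change -5.73 ± 0.73, adjusted p = 1.9e-04). The heart-type fatty acid binding protein *fabp3* had 38 and 44 CPM in WT SV, against 2971 and 4364 CPM in WT V (log2 fold change -6.62 ± 0.59, adjusted p = 4.5e-05). SV replicate 2 was the lower of the SV pair for the first 2 of these genes and the higher for *fabp3*. *acadvl*, which opens the oxidation of very long chain fatty acids, had 22 and 28.2 CPM in WT SV, against 2119 and 1981 CPM in WT V (log2 fold change -6.56 ± 0.68, adjusted p = 7.4e-05). *cpt1b*, the muscle carnitine palmitoyltransferase that admits fatty acids to mitochondria, had 9.1 and 5.99 CPM in WT SV, against 423 and 345 CPM in WT V (log2 fold change -5.65 ± 0.51, adjusted p = 4.6e-05). In each of these the SV libraries lay below the V libraries with no overlap. The single member of the fatty acid list that was higher in SV was *cd36*, a fatty acid transporter that enterocytes also use, with 20.6 and 23.7 CPM in WT SV, against 1.62 and 1.59 CPM in WT V (log2 fold change 3.71 ± 0.46, adjusted p = 1.7e-04).

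*gapdh*, a glycolytic enzyme often used as a reference gene, differed strongly, with 1324 and 796 CPM in WT SV, against 28167 and 48789 CPM in WT V (log2 fold change -5.32 ± 1.06, adjusted p = 0.0029). *gpib*, glucose-6-phosphate isomerase, had 3.91 and 2.59 CPM in WT SV, against 378 and 376 CPM in WT V (log2 fold change -7.03 ± 0.9, adjusted p = 2.0e-04). *pgam2*, the muscle phosphoglycerate mutase, had 31.7 and 19.4 CPM in WT SV, against 827 and 1259 CPM in WT V (log2 fold change -5.49 ± 0.88, adjusted p = 7.5e-04). These glycolytic genes were lower in both SV libraries, *gpib* at a few CPM. In the citric acid cycle *idh2* had 290.3 and 170.3 CPM in WT SV, against 5608 and 6419 CPM in WT V (log2 fold change -4.78 ± 0.45, adjusted p = 5.1e-05). *mdh2* had 262 and 163 CPM in WT SV, against 5329 and 4229 CPM in WT V (log2 fold change -4.35 ± 0.43, adjusted p = 6.1e-05). *slc25a5*, which exchanges ADP and ATP across the inner mitochondrial membrane, had 2542 and 1668 CPM in WT SV, against 34512 and 32053 CPM in WT V (log2 fold change -3.95 ± 0.4, adjusted p = 6.7e-05). All 6 enzymes and carriers were lower in both SV libraries. *pklr*, the pyruvate kinase of liver and erythrocytes, ran the other way, with 6.31 and 10.3 CPM in WT SV, against 0 and 0.0294 CPM in WT V (ratio of SV to V 619, 95% interval 111 to 24499.6, adjusted p = 0.0042).

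The creatine kinase isoforms differed in opposite directions. *ckmt2a*, the mitochondrial creatine kinase of muscle, had 4.57 and 1.98 CPM in WT SV, against 858 and 1347 CPM in WT V (log2 fold change -8.4 ± 1.02, adjusted p = 1.5e-04). *ckma*, the cytosolic muscle form, had 214 and 122.9 CPM in WT SV, against 3726 and 10806 CPM in WT V (log2 fold change -5.64 ± 0.96, adjusted p = 0.0011). *ckba*, a brain-type form that smooth muscle and neurons also use, had 1217 and 732 CPM in WT SV, against 51 and 54.3 CPM in WT V (log2 fold change 4.3 ± 0.45, adjusted p = 7.8e-05). The muscle forms were lower in both SV libraries and the brain-type form was higher in both. The oxygen store myoglobin (*mb*) had 334 and 229 CPM in WT SV, against 15159 and 33577 CPM in WT V (log2 fold change -6.69 ± 0.9, adjusted p = 2.6e-04). *ppargc1a*, a coactivator of mitochondrial gene expression, had 0.457 and 1.07 CPM in WT SV, against 36.5 and 104 CPM in WT V (log2 fold change -6.8 ± 0.62, adjusted p = 4.7e-05).

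**Figure D3:**
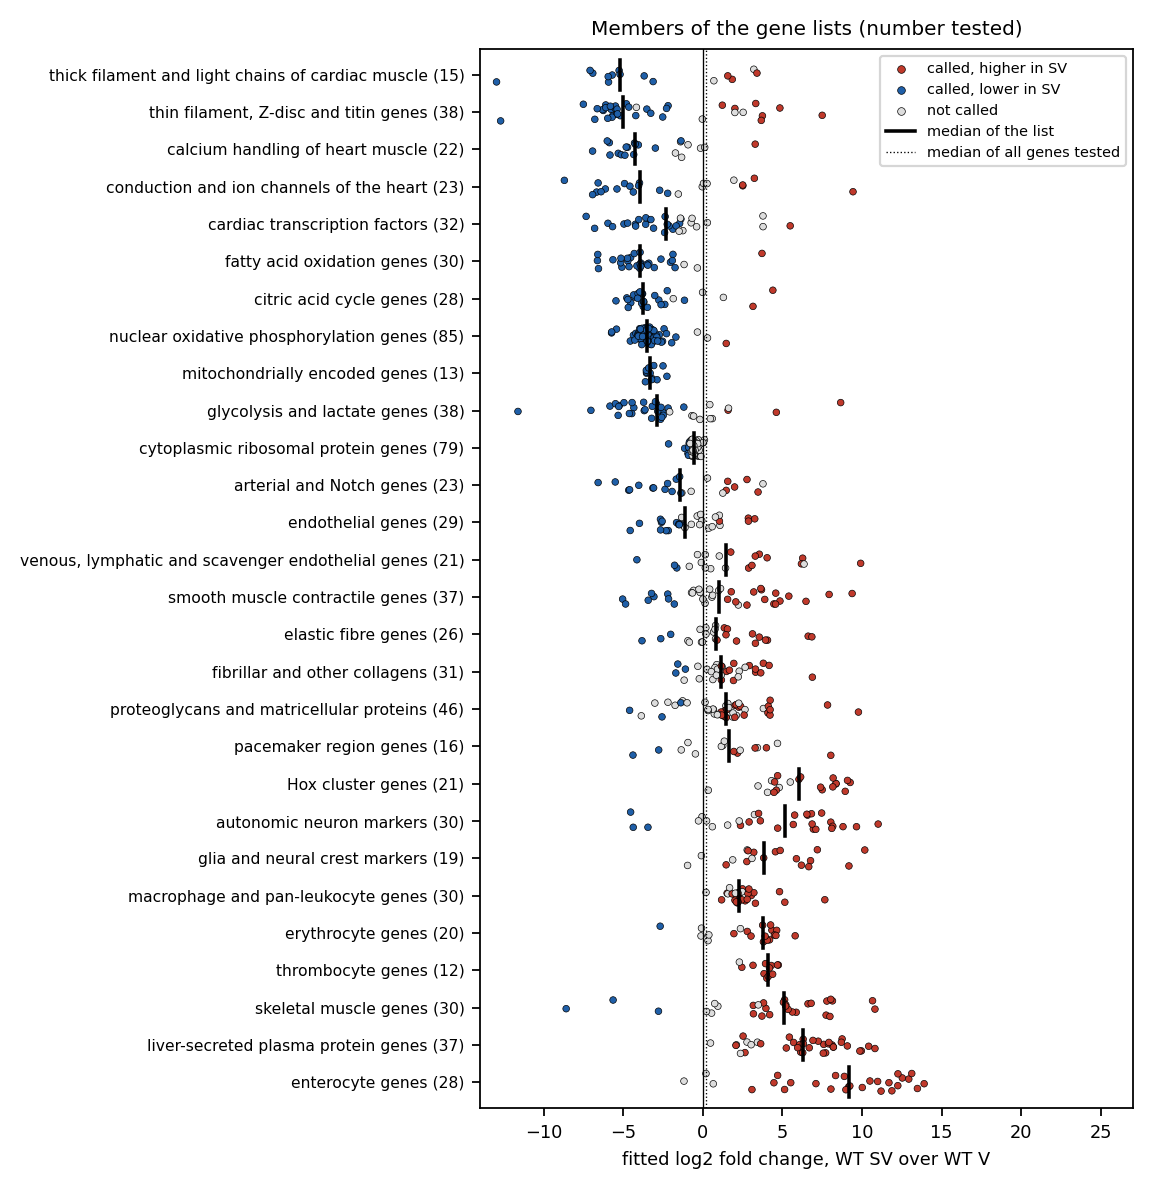
Each row is a gene list with its number of tested genes, and each point is 1 gene at its fitted log2 fold change of WT SV over WT V, coloured by whether it was called higher or lower in SV (adjusted p under 0.05) or not called. Short vertical bars are list medians and the dotted line is the median of all genes tested, 0.21; the muscle and energy lists lie mostly below 0, and the enterocyte and liver lists mostly above it.

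Transcription factors of the heart were mostly lower in SV: 22 of 32 tested were lower and 1 was higher (median log2 fold change -2.3). *nkx2.5*, a core cardiac factor, had 13.6 and 13.1 CPM in WT SV, against 198 and 453 CPM in WT V (log2 fold change -4.96 ± 0.75, adjusted p = 5.5e-04). *tbx5a*, known for its role in heart and fin, had 1.26 and 1.75 CPM in WT SV, against 21.6 and 21.9 CPM in WT V (log2 fold change -4.24 ± 0.64, adjusted p = 5.5e-04). *irx1a*, a ventricular Iroquois gene, had 1.72 and 2.49 CPM in WT SV, against 70.28 and 153 CPM in WT V (log2 fold change -5.67 ± 0.89, adjusted p = 6.8e-04). Both SV libraries were low for all 3. *hey2*, a Notch target of the ventricle, had 1.19 and 0.862 CPM in WT SV, against 8.87 and 19.4 CPM in WT V (log2 fold change -4.03 ± 0.64, adjusted p = 7.1e-04). *hand2*, needed for cardiomyocyte formation, had 23.5 and 15.9 CPM in WT SV, against 149 and 239 CPM in WT V (log2 fold change -3.45 ± 0.41, adjusted p = 1.3e-04). Both were lower in each SV library than in each V library. *gata4* had 0.709 and 1.21 CPM in WT SV, against 3.05 and 4.96 CPM in WT V (log2 fold change -2.4 ± 0.51, adjusted p = 0.0041). *gata6* had 32 and 28.5 CPM in WT SV, against 119.7 and 102 CPM in WT V (log2 fold change -1.88 ± 0.37, adjusted p = 0.0025). Their differences were smaller than that of *nkx2.5*. *tbx20* had 30.9 and 16.3 CPM in WT SV, against 54.9 and 70.5 CPM in WT V (log2 fold change -1.38 ± 0.42, adjusted p = 0.025). Its call was lost without WT SV replicate 2 and without WT V replicate 2. The single higher member was *tbx1*, a gene of the second heart field and pharynx, with 3.27 and 2.21 CPM in WT SV, against 0 and 0.117 CPM in WT V (log2 fold change 5.48 ± 0.95, adjusted p = 0.0012).

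Hox genes, which mark position along the body axis, were detected in SV and were at or near 0 in V. Of 28 Hox genes listed in the files, 17 had 0 counts in both WT V libraries. Of 21 tested, 15 were higher in SV and 0 lower, with a median log2 fold change of 6.04 as fitted and 3.56 with the members at 0 counts in 1 tissue set to their bounds. *hoxa1a* had 8.87 and 5.29 CPM in WT SV, against 0.197 and 0.0881 CPM in WT V (log2 fold change 6.04 ± 0.9, adjusted p = 5.0e-04). *hoxa4a* had 7.73 and 5.47 CPM in WT SV, against 0.147 and 0.0587 CPM in WT V (log2 fold change 6.14 ± 0.76, adjusted p = 1.7e-04). *hoxb2a* had 5.35 and 2.33 CPM in WT SV, against 0.0737 and 0.235 CPM in WT V (log2 fold change 4.69 ± 0.72, adjusted p = 5.9e-04). For all 3 Hox genes SV replicate 1 was the higher of the SV pair. *hoxb3a* had 7.02 and 3.89 CPM in WT SV, against 0 and 0.499 CPM in WT V (log2 fold change 4.47 ± 1.0, adjusted p = 0.0056). These 4 genes stood at a few CPM in SV and at most at 0.499 CPM in V. Without WT V replicate 1 the number called higher was 6. In the other WT chambers *hoxb2a* had 0.326 and 0.134 CPM in WT A and 6.31 and 7.08 CPM in WT BA, and *hoxa4a* had 0.275 and 0.348 CPM in WT A and 0.408 and 1.22 CPM in WT BA.

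*nr2f1a*, the gene mutated in the aco fish, had 17.9 and 9.67 CPM in WT SV, against 1.35 and 1.7 CPM in WT V (log2 fold change 3.24 ± 0.43, adjusted p = 2.3e-04). It was higher in SV in both libraries, and higher still in A, with 73.7 and 66.2 CPM in WT A (log2 fold change of SV over A -2.29 ± 0.4, adjusted p = 0.0022). *nr2f5*, a related receptor, had 1.05 and 1.93 CPM in WT SV, against 0 and 0.0881 CPM in WT V (ratio of SV to V 37.1, 95% interval 12.4 to 182, adjusted p = 0.0049). *nr2f2*, known for venous identity in the mouse, did not differ detectably, with 12.9 and 5.94 CPM in WT SV, against 11.3 and 12.7 CPM in WT V (log2 fold change -0.34 ± 0.41, adjusted p = 0.56). Meis and Pbx genes encode partners of Hox proteins, and 5 of 13 tested were higher and 1 lower. *meis1a* had 32.9 and 18.8 CPM in WT SV, against 3.17 and 2.76 CPM in WT V (log2 fold change 3.07 ± 0.52, adjusted p = 0.0011). *pbx3b* had 5.05 and 3.56 CPM in WT SV, against 0 and 0.0294 CPM in WT V (ratio of SV to V 323, 95% interval 57.6 to 12778, adjusted p = 8.1e-04), while *meis1b* had 38.8 and 28.6 CPM in WT SV, against 47.3 and 53.3 CPM in WT V (log2 fold change -0.64 ± 0.31, adjusted p = 0.12). The 5 higher calls became 3 without WT V replicate 1 and 3 without WT V replicate 2.

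Retinoic acid is the signal that sets Hox expression and the posterior limit of the heart. Of 25 tested genes of its pathway 10 were higher in SV and 3 lower, and 5 were higher without WT V replicate 1. *crabp2b*, which carries retinoic acid to its receptors, had 10.4 and 10.2 CPM in WT SV, against 0.393 and 0.617 CPM in WT V (log2 fold change 4.46 ± 0.61, adjusted p = 3.1e-04). *cyp26c1*, which degrades it, had 0.389 and 0.443 CPM in WT SV and 0 counts in both WT V libraries (at least 5.14-fold higher, adjusted p = 0.0096), and lost its call without WT V replicate 1. *aldh1a2*, the enzyme that makes retinoic acid, did not pass the test, with 78.3 and 114 CPM in WT SV, against 84 and 104 CPM in WT V (log2 fold change -0.22 ± 0.54, adjusted p = 0.79). Of these 3 genes, *crabp2b* and *cyp26c1* separated the tissues and *aldh1a2* overlapped. *rbp4*, a retinol carrier that liver secretes, had 2736 and 1753 CPM in WT SV, against 724 and 499 CPM in WT V (log2 fold change 2.07 ± 0.48, adjusted p = 0.0070) and lost its call without WT V replicate 1 and without WT V replicate 2. *rbp4* was also high outside these tissues, with 2521 and 7367 CPM in WT BA.

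Smooth muscle genes were higher in SV more often than lower. Of 37 tested, 16 were higher and 8 lower (median log2 fold change 0.99), where 19.4% of all genes tested were higher and 16.2% lower. Both directions were thus called more often in this list than among all genes. The list took 0.636% and 0.452% of all counts in WT SV, against 0.193% and 0.164% in WT V. *acta2*, smooth muscle actin, had 1915 and 1271 CPM in WT SV, against 81.9 and 39.7 CPM in WT V (log2 fold change 5.4 ± 0.58, adjusted p = 8.7e-05). *tagln*, which binds actin in smooth muscle, had 997 and 994 CPM in WT SV, against 79.4 and 42.7 CPM in WT V (log2 fold change 4.46 ± 0.45, adjusted p = 6.5e-05). *myh11a*, the smooth muscle myosin heavy chain, had 155 and 132 CPM in WT SV, against 8.55 and 14.8 CPM in WT V (log2 fold change 3.68 ± 0.54, adjusted p = 4.6e-04). In SV these transcripts stood above 100 CPM in both libraries, and in V below that level. The kinase that starts smooth muscle contraction, *mylka*, had 215 and 157 CPM in WT SV, against 4.59 and 8.66 CPM in WT V (log2 fold change 4.84 ± 0.48, adjusted p = 6.1e-05). All 4 were higher in each SV library than in each V library, and *tagln* was among the 10 highest genes of SV by mean FPKM of those called higher.

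*lmod1b*, a smooth muscle leiomodin, had 27.9 and 25.7 CPM in WT SV, against 0.86 and 1.64 CPM in WT V (log2 fold change 4.57 ± 0.7, adjusted p = 5.9e-04). *tpm1* had 195 and 96.7 CPM in WT SV, against 4.86 and 8.01 CPM in WT V (log2 fold change 4.58 ± 0.56, adjusted p = 1.6e-04) and *cald1a*, caldesmon, had 172 and 161 CPM in WT SV, against 43 and 58.6 CPM in WT V (log2 fold change 1.78 ± 0.36, adjusted p = 0.0031). Other members were lower. *myl9a*, a regulatory light chain, had 231 and 162 CPM in WT SV, against 1044 and 628 CPM in WT V (log2 fold change -1.79 ± 0.33, adjusted p = 0.0017), a call lost with library totals. Its paralog *myl9b* had 139 and 78.6 CPM in WT SV, against 529 and 555 CPM in WT V (log2 fold change -2.21 ± 0.35, adjusted p = 6.9e-04). *mcamb*, an adhesion molecule of vessels, had 48 and 30.6 CPM in WT SV, against 287 and 389 CPM in WT V (log2 fold change -3.22 ± 0.39, adjusted p = 1.5e-04). These 3 genes were lower in both SV libraries. *myocd*, the coactivator of the smooth muscle programme, had 5.92 and 10.2 CPM in WT SV, against 20.0 and 10.6 CPM in WT V (log2 fold change -0.71 ± 0.39, adjusted p = 0.18). *acta2* had 6005 and 8036 CPM in WT BA (log2 fold change of SV over BA -2.08 ± 0.5, adjusted p = 0.016) and 445 and 54.6 CPM in WT A (log2 fold change of SV over A 3.75 ± 0.55, adjusted p = 9.0e-04). *myh11a* had 547 and 604 CPM in WT BA (log2 fold change of SV over BA -1.99 ± 0.5, adjusted p = 0.019) and 17.1 and 8.41 CPM in WT A (log2 fold change of SV over A 3.63 ± 0.55, adjusted p = 0.0011). Both genes had SV levels between those of A and of BA.

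Of 16 tested mural cell genes 3 were higher and 2 lower in SV, shares near those of all genes. *rgs5a*, a pericyte and smooth muscle regulator of G protein signals, had 304 and 143 CPM in WT SV, against 5.23 and 12.8 CPM in WT V (log2 fold change 4.66 ± 0.74, adjusted p = 7.0e-04). *pdgfra*, a receptor of fibroblasts, had 4.37 and 2.4 CPM in WT SV, against 0.0246 and 0.382 CPM in WT V (log2 fold change 4.1 ± 0.98, adjusted p = 0.0078). The pericyte receptor *pdgfrb* had 1.39 and 0.536 CPM in WT SV, against 0.344 and 0.47 CPM in WT V (log2 fold change 1.0 ± 0.74, adjusted p = 0.32), which did not pass the test. *rgs5a* and *pdgfra* were higher in both SV libraries, and *pdgfrb* was low in both tissues. *abcc9*, a potassium channel subunit of pericytes and cardiomyocytes, had 9.35 and 5.94 CPM in WT SV, against 56.1 and 40.2 CPM in WT V (log2 fold change -2.59 ± 0.39, adjusted p = 5.4e-04).

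Genes of the extracellular matrix were more often higher than lower in SV. Of 31 tested collagen genes 13 were higher and 3 lower (median log2 fold change 1.16). Of 46 proteoglycan and matricellular genes 19 were higher and 3 lower (median 1.46), and of 26 elastic fibre genes 12 were higher and 3 lower (median 0.8). These counts leaned on 2 libraries: without WT SV replicate 1 the higher genes numbered 7, 11 and 6, and without WT V replicate 1 they numbered 8, 7 and 6, in the order collagens, proteoglycans, elastic fibres. The 3 lower collagen calls were 0 without WT SV replicate 1.

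*elnb*, an elastin gene active in the bulbus of fish, had 16.4 and 20.1 CPM in WT SV, against 0.0491 and 0.323 CPM in WT V (log2 fold change 6.61 ± 0.82, adjusted p = 1.7e-04), while its paralog *elna* had 25.8 and 24.3 CPM in WT SV, against 22.5 and 27.6 CPM in WT V (log2 fold change -0.09 ± 0.33, adjusted p = 0.86). *loxa*, lysyl oxidase, which crosslinks collagen and elastin, had 76.1 and 24.7 CPM in WT SV, against 0.54 and 5.9 CPM in WT V (log2 fold change 4.06 ± 0.81, adjusted p = 0.0028). *elnb* and *loxa* were higher in both SV libraries, and *elna* was not called. *fbln5*, which binds elastin, had 21.5 and 15.9 CPM in WT SV, against 5.36 and 7.72 CPM in WT V (log2 fold change 1.35 ± 0.33, adjusted p = 0.0089) and lost its call without WT SV replicate 1. *efemp2a*, another fibulin, was lower, with 0.389 and 0.466 CPM in WT SV, against 10.4 and 4.61 CPM in WT V (log2 fold change -3.82 ± 0.72, adjusted p = 0.0020). The elastin *elnb* was far higher in BA, with 322 and 299 CPM in WT BA.

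The fibrillar collagen *col1a1b* had 488 and 526 CPM in WT SV, against 108 and 138 CPM in WT V (log2 fold change 1.94 ± 0.32, adjusted p = 8.1e-04). *col1a2*, a partner chain, had 196 and 231 CPM in WT SV, against 46.7 and 88.8 CPM in WT V (log2 fold change 1.48 ± 0.31, adjusted p = 0.0040). *col6a4a*, a microfibrillar collagen, had 127 and 103 CPM in WT SV, against 10.5 and 19.5 CPM in WT V (log2 fold change 2.92 ± 0.39, adjusted p = 2.6e-04). The V replicates differed more than the SV replicates for these 3 collagens. *col15a1a*, a basement membrane collagen, had 34 and 28.5 CPM in WT SV, against 2.28 and 3.55 CPM in WT V (log2 fold change 3.31 ± 0.39, adjusted p = 1.4e-04). The fibronectin gene *fn1a* had 107 and 97.3 CPM in WT SV, against 3.81 and 6.37 CPM in WT V (log2 fold change 4.22 ± 0.34, adjusted p = 3.6e-05), with nearly equal SV replicates. The V libraries stayed below 7 CPM for *fn1a*. Its paralog *fn1b* had 946 and 1063 CPM in WT SV, against 158 and 437 CPM in WT V (log2 fold change 1.38 ± 0.39, adjusted p = 0.018), a call lost without WT SV replicate 1 and without WT V replicate 1. The thrombospondin *thbs4b*, known from tendon and vessel wall, had 50.1 and 38.9 CPM in WT SV, against 0.0246 and 0.0881 CPM in WT V (ratio of SV to V 833, 95% interval 325 to 3059, adjusted p = 4.8e-05). *thbs1b* had 287 and 178 CPM in WT SV, against 12.5 and 16.4 CPM in WT V (log2 fold change 4.11 ± 0.48, adjusted p = 1.2e-04). *thbs1b* also stands in the thrombocyte list. These collagens, fibronectins and thrombospondins were higher in both SV libraries. In the opposite direction, *spock3*, a calcium-binding proteoglycan, had 41.8 and 33.9 CPM in WT SV, against 700.1 and 1120.4 CPM in WT V (log2 fold change -4.6 ± 0.39, adjusted p = 4.0e-05). *postna*, a matricellular gene of fibroblasts, had 7.43 and 5.47 CPM in WT SV, against 14.6 and 53.5 CPM in WT V (log2 fold change -2.57 ± 0.41, adjusted p = 7.5e-04), and lost its call without WT V replicate 2. The matricellular growth factor *ctgfa* had 395 and 334 CPM in WT SV, against 67.2 and 64.8 CPM in WT V (log2 fold change 2.59 ± 0.41, adjusted p = 6.9e-04).

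Of 16 tested epicardial and mesothelial genes 7 were higher in SV and 3 lower. *wt1b*, an epicardial factor, had 29.2 and 23.3 CPM in WT SV, against 4.79 and 6.19 CPM in WT V (log2 fold change 2.22 ± 0.36, adjusted p = 7.6e-04). *tcf21*, another epicardial factor, had 6.81 and 4.38 CPM in WT SV, against 4.72 and 5.52 CPM in WT V (log2 fold change 0.09 ± 0.4, adjusted p = 0.88). *igfbp1a*, a secreted binder of insulin-like growth factors, had 3174 and 1529 CPM in WT SV, against 46 and 87.6 CPM in WT V (log2 fold change 5.15 ± 0.56, adjusted p = 8.9e-05), which made it one of the 10 highest genes of SV among those called higher. The epicardial factors thus included a gene that was called and one that was not. *cxcl12a*, a chemokine of stroma and mesothelium, had 63.2 and 66.1 CPM in WT SV, against 1.65 and 6.87 CPM in WT V (log2 fold change 3.92 ± 0.66, adjusted p = 9.8e-04). *wt1b*, *igfbp1a* and *cxcl12a* were higher in both SV libraries, and *tcf21* was not called.

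The endothelial lists differed in direction, less so with library totals. Of 29 general endothelial genes 13 were lower in SV and 4 higher (median log2 fold change -1.12). Of 23 arterial and Notch genes 13 were lower and 5 higher (median -1.46). Of 21 venous, lymphatic and scavenger endothelial genes 9 were higher and 3 lower (median 1.42). With library totals the general list had 8 lower and 8 higher (median -0.34), the arterial list 9 lower and 7 higher (median -0.56) and the venous list 10 higher and 1 lower (median 2.2), beside the median of 1.03 for all genes. The higher calls of the first list were 2 without WT SV replicate 2 and 2 without WT V replicate 1, and those of the arterial list were 2 to 3 without any 1 library.

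*lyve1b*, a hyaluronan receptor of lymphatic and venous endothelium, had 31.6 and 16.3 CPM in WT SV, against 0 and 0.0587 CPM in WT V (ratio of SV to V 898, 95% interval 248 to 7421, adjusted p = 6.1e-05). *lyve1a* had 22.5 and 28.2 CPM in WT SV, against 1.2 and 2.11 CPM in WT V (log2 fold change 4.03 ± 0.72, adjusted p = 0.0015). *flt4*, the receptor for the lymphatic growth factor VEGF-C, had 9.99 and 7.71 CPM in WT SV, against 1.11 and 0.793 CPM in WT V (log2 fold change 3.54 ± 0.46, adjusted p = 2.2e-04). Both SV libraries exceeded both V libraries for these receptors. *osr1*, a factor of the venous pole of the heart in mouse, had 51.2 and 43.6 CPM in WT SV, against 0.811 and 0.793 CPM in WT V (log2 fold change 6.19 ± 0.5, adjusted p = 3.6e-05). *dab2*, an endocytic adaptor, had 13.4 and 12.9 CPM in WT SV, against 0.27 and 0.147 CPM in WT V (log2 fold change 6.27 ± 0.76, adjusted p = 1.5e-04). V was near 0 for *lyve1b* and *dab2*. The scavenger receptor *stab2* had 18.3 and 38.4 CPM in WT SV, against 3.12 and 3.17 CPM in WT V (log2 fold change 2.87 ± 0.75, adjusted p = 0.012), a call lost without WT SV replicate 2. *prox1a*, a lymphatic factor that cardiomyocytes also express, was lower, with 7.66 and 4.45 CPM in WT SV, against 80.9 and 125 CPM in WT V (log2 fold change -4.14 ± 0.38, adjusted p = 4.7e-05).

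*flt1*, a receptor for VEGF, had 21.2 and 12.5 CPM in WT SV, against 307 and 220.0 CPM in WT V (log2 fold change -3.98 ± 0.61, adjusted p = 5.7e-04). *kdrl*, the main VEGF receptor of zebrafish vessels, had 62.6 and 42 CPM in WT SV, against 216 and 180.3 CPM in WT V (log2 fold change -1.65 ± 0.33, adjusted p = 0.0031). The angiopoietin receptor *tek* had 18.3 and 24.6 CPM in WT SV, against 99.5 and 77.2 CPM in WT V (log2 fold change -2.17 ± 0.44, adjusted p = 0.0033). All 3 receptors were lower in both SV libraries. The Notch receptor *notch1b*, which endocardium expresses, had 135 and 123.4 CPM in WT SV, against 482 and 414 CPM in WT V (log2 fold change -1.67 ± 0.31, adjusted p = 0.0020). *aqp8a.1*, a water channel of endothelium, had 58.9 and 46.5 CPM in WT SV, against 2228 and 1856 CPM in WT V (log2 fold change -5.5 ± 0.78, adjusted p = 3.6e-04). *efnb2b*, an arterial ephrin, had 0.777 and 0.582 CPM in WT SV, against 8.87 and 17.7 CPM in WT V (log2 fold change -4.66 ± 0.54, adjusted p = 1.2e-04). The receptor *notch1b*, the water channel and the ephrin were lower in both SV libraries. Other genes of the same lists were higher: *lmo2* had 112 and 93.4 CPM in WT SV, against 24.4 and 12.8 CPM in WT V (log2 fold change 2.85 ± 0.29, adjusted p = 6.7e-05). The direction of *lmo2* was opposite to that of the VEGF receptors. *tal1* had 78.8 and 102 CPM in WT SV, against 7.42 and 10.5 CPM in WT V (log2 fold change 3.26 ± 0.4, adjusted p = 1.6e-04). *aqp1a.1* had 446 and 476 CPM in WT SV, against 76 and 75.1 CPM in WT V (log2 fold change 2.77 ± 0.34, adjusted p = 1.6e-04). *jag1b* had 15.1 and 15.1 CPM in WT SV, against 2.73 and 4.34 CPM in WT V (log2 fold change 1.99 ± 0.3, adjusted p = 5.4e-04). *lmo2* and *tal1* are also blood genes, and *aqp1a.1* is also made by erythrocytes, whose transcripts were more abundant in SV. Their part in these values was not tested.

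Pacemaker region genes were at low levels in both tissues, with exceptions. Of 16 tested 5 were higher in SV and 2 lower (median log2 fold change 1.65), and the higher calls were 3 without WT SV replicate 1, 3 without WT V replicate 1 and 8 without WT V replicate 2. *shox2*, a pacemaker factor, had 6.72 and 3.87 CPM in WT SV, against 0.442 and 0.294 CPM in WT V (log2 fold change 3.99 ± 0.54, adjusted p = 2.8e-04), and it had 13.8 and 13.2 CPM in WT A. *isl1*, a factor of pacemaker cells and of autonomic neurons, had 1.6 and 0.419 CPM in WT SV and 0 counts in both WT V libraries (at least 12.5-fold higher, adjusted p = 0.022), and lost its call without WT SV replicate 1 and without either V library. *bmp4* had 7.71 and 3.66 CPM in WT SV, against 0.246 and 0.91 CPM in WT V (log2 fold change 3.28 ± 0.64, adjusted p = 0.0025). All 3 factors were below 1 CPM in V. The pacemaker channel *hcn4* had 0.297 and 0.489 CPM in WT SV, against 0.0246 and 1.09 CPM in WT V (log2 fold change -0.47 ± 0.99, adjusted p = 0.75), and so was not distinguishable at these levels. *hcn2b*, another channel of the family, was lower in SV, with 71.8 and 44.8 CPM in WT SV, against 428 and 337 CPM in WT V (log2 fold change -2.77 ± 0.49, adjusted p = 0.0013). The 2 channels of this family thus stood at very different levels. *tbx2a*, a repressor of the working muscle programme, had 7.29 and 4.56 CPM in WT SV, against 0.246 and 2.41 CPM in WT V (log2 fold change 2.18 ± 0.65, adjusted p = 0.024). Its call was lost without WT SV replicate 1 and without WT V replicate 1. *tbx3a* had 5.24 and 1.33 CPM in WT SV, against 0 and 0.646 CPM in WT V (log2 fold change 3.43 ± 1.3, adjusted p = 0.061). *tbx18* had 1.67 and 1.09 CPM in WT SV, against 0.197 and 0.881 CPM in WT V (log2 fold change 1.25 ± 0.54, adjusted p = 0.093), and both passed the test without WT V replicate 2.

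The natriuretic peptides, hormones of stretched cardiomyocytes, were lower in SV. *nppa* had 102 and 81 CPM in WT SV, against 1096 and 5444 CPM in WT V (log2 fold change -5.25 ± 0.94, adjusted p = 0.0015). *nppb* had 111 and 58.5 CPM in WT SV, against 967 and 3071 CPM in WT V (log2 fold change -4.84 ± 1.22, adjusted p = 0.010). The second with a call lost without WT SV replicate 2. *npr2*, a receptor of the family, had 23 and 12.3 CPM in WT SV, against 2.19 and 3.49 CPM in WT V (log2 fold change 2.52 ± 0.44, adjusted p = 0.0013). Of 11 tested genes of the system 1 was higher and 3 were lower.

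Genes that set vascular tone stood on both sides. Of 44 tested 21 were higher in SV and 11 lower (median log2 fold change 1.91), with 12 higher without WT V replicate 1. *gucy1a3*, a subunit of the nitric oxide receptor of smooth muscle, had 37.8 and 43.3 CPM in WT SV, against 0.147 and 0.0294 CPM in WT V (log2 fold change 10.5 ± 0.75, adjusted p = 3.0e-05). The vasodilator gene *admb*, an adrenomedullin, had 91.9 and 92.3 CPM in WT SV, against 4.59 and 9.48 CPM in WT V (log2 fold change 3.68 ± 0.72, adjusted p = 0.0025). *edn1*, endothelin 1, which constricts vessels, had 76.4 and 59.6 CPM in WT SV, against 2.46 and 7.1 CPM in WT V (log2 fold change 3.73 ± 1.02, adjusted p = 0.015), lost without WT V replicate 1. All 3 were higher in both SV libraries. *adrb3a*, a beta-adrenergic receptor, had 34.9 and 87 CPM in WT SV, against 2.51 and 1.73 CPM in WT V (log2 fold change 5.02 ± 0.5, adjusted p = 6.1e-05). Other receptors were lower in SV. *adrb2b*, another beta-adrenergic receptor, had 1.23 and 0.955 CPM in WT SV, against 23.4 and 72.2 CPM in WT V (log2 fold change -5.5 ± 0.88, adjusted p = 7.6e-04). *ednrab*, an endothelin receptor, had 3.22 and 4.36 CPM in WT SV, against 68.9 and 81.7 CPM in WT V (log2 fold change -4.56 ± 0.79, adjusted p = 0.0012). Both receptors were lower in each SV library. *avpr1aa*, a vasopressin-type receptor, had 0.343 and 0.21 CPM in WT SV, against 7.79 and 9.89 CPM in WT V (log2 fold change -4.86 ± 0.56, adjusted p = 1.2e-04). *calcrlb*, a receptor for calcitonin gene-related peptide, had 2.74 and 2.12 CPM in WT SV, against 22.4 and 12.7 CPM in WT V (log2 fold change -2.55 ± 0.37, adjusted p = 3.9e-04). Of the adrenergic receptors named here, *adrb3a* was higher and *adrb2b* lower.

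*calca*, which encodes calcitonin and calcitonin gene-related peptide, was one of the 12 largest rises, with 2580.2 and 249 CPM in WT SV, against 0.0737 and 0.264 CPM in WT V (log2 fold change 12.87 ± 1.44, adjusted p = 1.1e-04). The SV replicates differed by about an order of magnitude, and both V libraries were below 1 CPM. *calca* is also a product of the ultimobranchial gland and of sensory nerves near the heart, and the source of these transcripts was not tested.

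Markers of autonomic neurons were higher in SV for 20 of 30 tested genes and lower for 3, with a median log2 fold change of 5.19 as fitted and 3.63 with the members at 0 counts in 1 tissue set to their bounds. Glial and neural crest markers were higher for 14 of 19 and lower for 0, with a median of 3.82 as fitted and 2.92 with the members at 0 counts in 1 tissue set to their bounds. Without WT V replicate 1 the higher genes numbered 13 and 8. As shares of all counts the tissues overlapped for both lists. Neuron markers took 0.0345% and 0.0196% in WT SV, against 0.0175% and 0.0205% in WT V. The tested neuron markers summed to 283 and 171 CPM in WT SV, against 261 and 339 CPM in WT V. *hand2*, given above among the heart factors, also stands in this list. It made up most of the V sums and a small part of the SV sums, so the overlap of the neuron list rested on *hand2*. Glial and neural crest markers took 0.0505% and 0.0188% in WT SV, against 0.0358% and 0.0208% in WT V. *chata*, which makes acetylcholine, had 5.42 and 2.05 CPM in WT SV and 0 counts in both WT V libraries (at least 46.2-fold higher, adjusted p = 9.0e-04). *slc18a3a*, which loads it into vesicles, had 7.91 and 2.38 CPM in WT SV, against 0 and 0.0294 CPM in WT V (ratio of SV to V 386, 95% interval 69 to 15299, adjusted p = 0.0031). *vipb*, a neuropeptide of parasympathetic neurons, had 42.7 and 9.22 CPM in WT SV, against 0.393 and 0.205 CPM in WT V (log2 fold change 6.86 ± 0.7, adjusted p = 6.7e-05). All 3 transcripts were present in both SV libraries and near 0 in V. *prph*, a neuronal intermediate filament, had 5.58 and 1.98 CPM in WT SV, against 0 and 0.0294 CPM in WT V (ratio of SV to V 284, 95% interval 50.6 to 11244, adjusted p = 7.9e-04). For these genes SV replicate 1 was higher than SV replicate 2, and V stayed below 0.5 CPM.

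The myelin gene *mbpa* had 47.8 and 13.1 CPM in WT SV, against 1.23 and 0.352 CPM in WT V (log2 fold change 6.19 ± 0.63, adjusted p = 6.7e-05). The myelin gene *mpz* had 27.5 and 9.57 CPM in WT SV, against 1.28 and 0.558 CPM in WT V (log2 fold change 4.86 ± 0.72, adjusted p = 4.6e-04). *s100b*, a glial calcium-binding protein, had 3.0 and 2.42 CPM in WT SV and 0 counts in both WT V libraries (at least 33.5-fold higher, adjusted p = 3.6e-04). Myelin genes were detected in both tissues, and *s100b* had no count in V. *sox10*, the glial lineage factor, had 0.755 and 0.792 CPM in WT SV, against 0.147 and 0 CPM in WT V (log2 fold change 4.56 ± 1.15, adjusted p = 0.011), a call lost without WT V replicate 2. Of the adrenergic markers, *dbh*, which makes noradrenaline, had 0.0915 and 0.885 CPM in WT SV, against 0 and 0 CPM in WT V (at least 6.04-fold higher, adjusted p = 0.038), and lost its call without WT SV replicate 2 and without either V library. *slc18a2*, the vesicular monoamine transporter, was lower in SV, with 0.755 and 0.559 CPM in WT SV, against 15.1 and 16.9 CPM in WT V (log2 fold change -4.54 ± 0.63, adjusted p = 3.1e-04). In the other WT chambers *chata* had 2.08 and 1.39 CPM in WT A and 0 and 0 CPM in WT BA, and *vipb* had 5.83 and 4.07 CPM in WT A and 0.462 and 0.442 CPM in WT BA, so that both were detected in A. The histamine receptor *hrh3*, which neurons also use, was among the largest falls, with 0.0915 and 0.0233 CPM in WT SV, against 28.4 and 40.2 CPM in WT V (log2 fold change -8.97 ± 1.29, adjusted p = 5.4e-04).

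Genes of white blood cells were higher in SV. Of 30 tested macrophage and pan-leukocyte genes 25 were higher and 0 lower (median log2 fold change 2.24), and of 25 neutrophil and lymphocyte genes 14 were higher and 0 lower (median 2.97 as fitted and 2.78 with the members at 0 counts in 1 tissue set to their bounds). The second count was 8 without WT SV replicate 2, 3 without WT V replicate 1 and 9 without WT V replicate 2. *marco*, a macrophage scavenger receptor, had 53 and 66.8 CPM in WT SV, against 3.19 and 9.48 CPM in WT V (log2 fold change 3.04 ± 0.65, adjusted p = 0.0043). *mpeg1.1*, a macrophage perforin, had 10.5 and 16.2 CPM in WT SV, against 1.35 and 3.32 CPM in WT V (log2 fold change 2.49 ± 0.46, adjusted p = 0.0018). *lcp1*, the actin bundler of leukocytes, had 41.2 and 84.5 CPM in WT SV, against 7.93 and 13.8 CPM in WT V (log2 fold change 2.46 ± 0.4, adjusted p = 7.7e-04). SV exceeded V in each library for all 3. *lyz*, lysozyme, had 22.1 and 76.7 CPM in WT SV, against 7.27 and 6.99 CPM in WT V (log2 fold change 2.71 ± 0.73, adjusted p = 0.014), and lost its call without WT SV replicate 2 and without either V library.

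Chemokine genes were higher in 20 of 37 tested and lower in 0 (median log2 fold change 2.43 as fitted and 2.21 with the members at 0 counts in 1 tissue set to their bounds), and 9 were higher without WT V replicate 1. *ccl25b* had 325 and 207 CPM in WT SV, against 2.28 and 10.8 CPM in WT V (log2 fold change 5.34 ± 0.86, adjusted p = 7.6e-04). *cxcl8b.1*, a neutrophil attractant, had 26.6 and 29.5 CPM in WT SV, against 1.03 and 0.587 CPM in WT V (log2 fold change 5.53 ± 1.11, adjusted p = 0.0030). Interferon response genes were higher in 14 of 32 and lower in 0, with 9 higher without WT SV replicate 2 and 8 without WT V replicate 1. *irf7*, which turns on interferon genes, had 75.2 and 50.6 CPM in WT SV, against 6.41 and 8.25 CPM in WT V (log2 fold change 3.2 ± 0.58, adjusted p = 0.0016). *ifit15* had 11.4 and 10.3 CPM in WT SV and 0 counts in both WT V libraries (at least 134-fold higher, adjusted p = 0.0012). *ifit15* had 0 counts in A as well, and 0 and 0.078 CPM in WT BA. Complement and acute phase genes were higher in 22 of 29 and lower in 1. *cfd*, complement factor D, had 649 and 427 CPM in WT SV, against 103 and 94.7 CPM in WT V (log2 fold change 2.58 ± 0.43, adjusted p = 8.8e-04). *c7a*, a part of the membrane attack complex, had 171 and 112 CPM in WT SV, against 21.6 and 39.4 CPM in WT V (log2 fold change 2.04 ± 0.5, adjusted p = 0.0094), and lost its call without WT SV replicate 1 and without WT V replicate 1.

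Markers of organs beside the heart chambers were among the largest differences. Of 28 tested enterocyte genes 25 were higher in SV and 0 lower, with a median log2 fold change of 9.2 as fitted and 7.43 with the members at 0 counts in 1 tissue set to their bounds. The list took 0.304% and 0.306% of all counts in WT SV, against 0.0143% and 0.00593% in WT V. *chia.1*, an acidic chitinase of the gut, had 937 and 893 CPM in WT SV, against 0.221 and 0.235 CPM in WT V (log2 fold change 11.87 ± 0.72, adjusted p = 1.5e-05). *fabp2*, the intestinal fatty acid binding protein, had 115 and 138 CPM in WT SV, against 0 and 0.0294 CPM in WT V (ratio of SV to V 9429, 95% interval 1692 to 372476, adjusted p = 2.7e-05). *cdhr2*, a cadherin of the brush border, had 24.2 and 23.3 CPM in WT SV and 0 counts in both WT V libraries (at least 294-fold higher, adjusted p = 3.4e-04). Both SV libraries held these transcripts in nearly equal amounts. Of the 12 largest rises, *fabp1b.1*, *chia.3*, *slc13a2*, *chia.2*, *cdhr2*, *pdzk1*, *fabp2*, *chs1* and *anpepb* are genes that gut epithelium is known to express or that build or digest chitin, *apoea* encodes an apolipoprotein and *calca* was described above. *apoea* had 431 and 274 CPM in WT SV, against 0.0491 and 0.0587 CPM in WT V (ratio of SV to V 6599, 95% interval 2577 to 24221, adjusted p = 1.2e-05). The *chia* genes are near copies of each other, so their separate levels are uncertain.

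Of 37 tested genes of plasma proteins made by liver 31 were higher in SV and 0 lower (median log2 fold change 6.31 as fitted and 6.14 with the members at 0 counts in 1 tissue set to their bounds), and they took 0.48% and 0.452% of all counts in WT SV, against 0.053% and 0.0342% in WT V. *apoa1a*, the main protein of high density lipoprotein, had 356 and 444 CPM in WT SV, against 0.0491 and 0.294 CPM in WT V (log2 fold change 10.81 ± 1.37, adjusted p = 1.9e-04). *fabp10a*, the liver fatty acid binding protein, had 30.5 and 53.4 CPM in WT SV, against 0.811 and 0.734 CPM in WT V (log2 fold change 5.7 ± 1.4, adjusted p = 0.0090). *vtg2*, a yolk precursor made by the liver of females, had 11.07 and 118 CPM in WT SV, against 3.41 and 0.763 CPM in WT V (log2 fold change 6.27 ± 1.67, adjusted p = 0.013), and lost its call without WT SV replicate 2 and without either V library. *apoa1a* was even between the SV replicates, and *vtg2* was not.

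Exocrine pancreas genes were uneven. 13 of 16 tested were higher and 1 was lower, with 5 higher without WT SV replicate 1 and 7 without WT V replicate 1. The list took 0.0731% and 0.0067% of all counts in WT SV, against 0.0222% and 0.0194% in WT V, so that WT SV replicate 1 alone stood above the V libraries. Nearly all of the V share was *ctrb1*, with 322 and 311 CPM in WT V. The tested genes of the list summed to 579 and 57.9 CPM in WT SV, against 330 and 321 CPM in WT V. SV replicate 2 thus lay below the V libraries through *ctrb1*. *try*, a trypsin, had 130.4 and 4.75 CPM in WT SV, against 1.72 and 3.96 CPM in WT V (log2 fold change 4.53 ± 1.19, adjusted p = 0.013), lost without WT SV replicate 1 and without WT V replicate 1, and *ctrb1*, a chymotrypsinogen, had 43 and 4.66 CPM in WT SV, against 322 and 311 CPM in WT V (log2 fold change -3.87 ± 0.97, adjusted p = 0.010). Skeletal muscle genes were higher in 22 of 30 and lower in 3 (median log2 fold change 5.1 as fitted and 4.08 with the members at 0 counts in 1 tissue set to their bounds), with 12 higher without WT V replicate 1, and took 0.203% and 0.0508% of all counts in WT SV, against 0.00781% and 0.0143% in WT V. *myhb*, a fast skeletal myosin, had 941 and 158 CPM in WT SV, against 0.0491 and 0.646 CPM in WT V (log2 fold change 10.66 ± 1.35, adjusted p = 1.8e-04) and *mylpfa*, its light chain, had 232 and 108 CPM in WT SV, against 1.06 and 0.94 CPM in WT V (log2 fold change 7.74 ± 0.58, adjusted p = 3.5e-05). SV replicate 1 was again the higher.

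Epithelial and epidermal genes were higher in 25 of 41 and lower in 3 (median log2 fold change 4.92 as fitted and 2.9 with the members at 0 counts in 1 tissue set to their bounds). *epcam*, an adhesion molecule of epithelia, had 19.8 and 9.32 CPM in WT SV and 0 counts in both WT V libraries (at least 179.7-fold higher, adjusted p = 9.9e-05). *krt5*, a basal keratin, had 4.96 and 24.1 CPM in WT SV, against 0.712 and 0.323 CPM in WT V (log2 fold change 5.52 ± 0.82, adjusted p = 5.0e-04). Of 4 thyroid genes 2 were higher, and none without either V library. Adipocyte genes were higher in 6 of 10 and lower in 2, with 2 to 3 higher without any 1 library. The part of gut, liver, pancreas, skeletal muscle and epithelial tissue in the differences of the other lists was not tested.

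Blood cells were another large component. Erythrocyte genes were higher in 14 of 20 tested and lower in 1 (median log2 fold change 3.78). The globin *ba1* had 50968 and 107718 CPM in WT SV, against 4140.2 and 6577 CPM in WT V (log2 fold change 3.8 ± 0.49, adjusted p = 2.1e-04). *hbaa1*, an alpha globin, had 39512 and 79204 CPM in WT SV, against 3197 and 5132 CPM in WT V (log2 fold change 3.75 ± 0.5, adjusted p = 2.5e-04). *alas2*, the first enzyme of haem synthesis in erythrocytes, had 1737 and 2310.5 CPM in WT SV, against 68.5 and 121 CPM in WT V (log2 fold change 4.33 ± 0.39, adjusted p = 4.6e-05). SV replicate 2 was the higher of the SV pair for these 3 genes. *nt5c2l1* had 4186 and 2233 CPM in WT SV, against 138 and 144 CPM in WT V (log2 fold change 4.59 ± 0.43, adjusted p = 5.0e-05). The globins are near copies of each other, so the levels of single globin genes are uncertain, but all named here were higher in both SV libraries. Thrombocyte genes were higher in 11 of 12 and lower in 0 (median 4.07), with 113 and 176 CPM in WT SV, against 9.19 and 5.26 CPM in WT V (log2 fold change 4.68 ± 0.37, adjusted p = 3.6e-05) for the platelet glycoprotein gene *gp9*. Of the 10 highest genes by mean FPKM among those higher in SV, *ba1*, *hbaa1*, *ba1l*, *hbba2* and *hbaa2* encode globins, *nt5c2l1* stands in the erythrocyte list, and *rbp4*, *mcl1a*, *igfbp1a* and *tagln* were the rest.

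**Figure D4:**
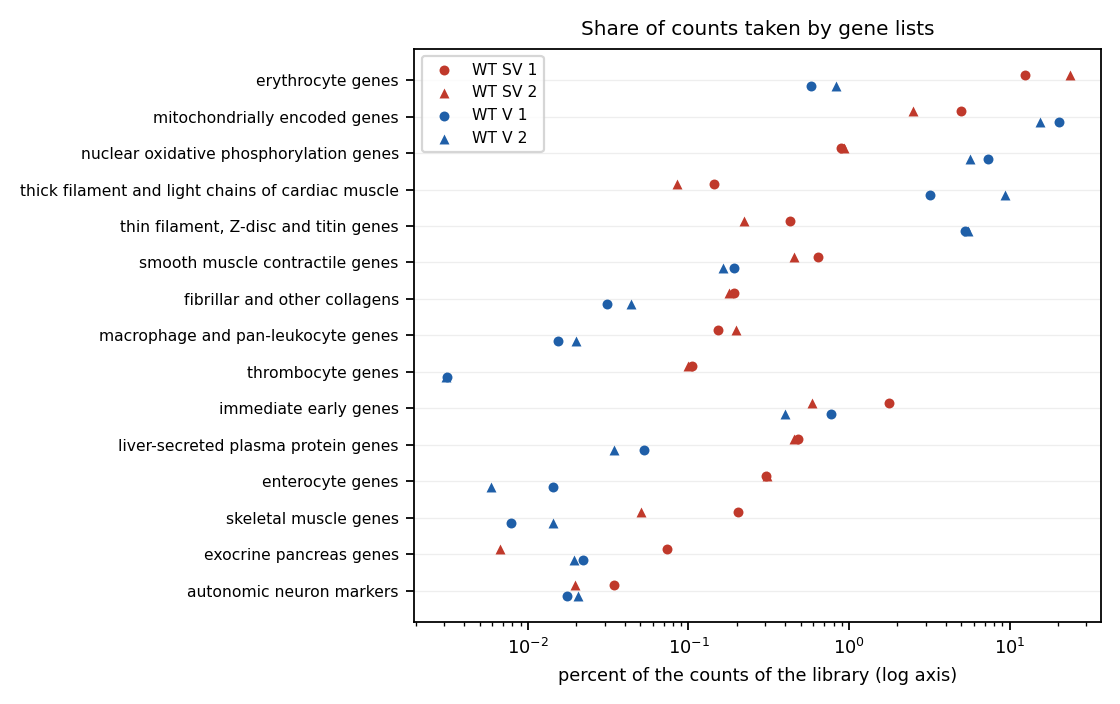
The x axis, a log axis, gives the percent of all counts of a library taken by each gene list, for the WT SV libraries (red) and the WT V libraries (blue), with circles for replicate 1 and triangles for replicate 2. The listed erythrocyte genes, without *ba1l*, took 12.5% and 23.6% in SV, against 0.577% and 0.832% in V. Of the lists plotted exocrine pancreas genes are the one in which the 2 SV libraries lie on either side of the V libraries. Nearly all of the V share of that list is *ctrb1*.

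The genes lower in SV with the highest mean FPKM in V included *cmlc1*, *gapdh*, *myl7*, *slc25a5*, *mb*, *actc1a*, *vmhcl*, *acta1b* and *tnnt2a*, which belong to muscle or energy metabolism. The ribosomal protein genes as a list had 8 of 79 lower and 0 higher (median log2 fold change -0.58), and 0 lower and 3 higher with library totals (median 0.25). Their 8 calls became 1, 0, 0 and 1 without WT SV replicate 1, WT SV replicate 2, WT V replicate 1 and WT V replicate 2. Of 23 housekeeping genes 2 were higher and 6 lower (median -0.36), and with library totals 9 were higher and 4 lower (median 0.51). *actb1*, cytoplasmic actin, had 1566 and 1145 CPM in WT SV, against 1039.9 and 1048 CPM in WT V (log2 fold change 0.5 ± 0.32, adjusted p = 0.24).

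The 12 largest falls held muscle, stress and receptor genes. *hspb11*, a small heat shock protein gene, had 19.6 and 7.57 CPM in WT SV, against 3735 and 6686 CPM in WT V (log2 fold change -8.61 ± 1.19, adjusted p = 3.1e-04). *cnih3*, known as a partner of glutamate receptors, had 0 counts in both WT SV libraries and 12.6 and 9.01 CPM in WT V (at least 156-fold lower, adjusted p = 0.0011). *gpr22a*, an orphan receptor of the heart, had 0.732 and 0.536 CPM in WT SV, against 227 and 196 CPM in WT V (log2 fold change -8.15 ± 0.69, adjusted p = 4.0e-05). *atp1a3b*, a sodium pump subunit, had 7.64 and 3.94 CPM in WT SV, against 1374 and 1277 CPM in WT V (log2 fold change -7.81 ± 0.89, adjusted p = 1.1e-04). Each of these genes was expressed in V and low or at 0 in SV. *fgf3*, a growth factor, had 0.0229 and 0.0699 CPM in WT SV, against 7.93 and 15 CPM in WT V (ratio of V to SV 242, 95% interval 94.2 to 890.2, adjusted p = 8.4e-05). *ungb* had 0 and 0.0466 CPM in WT SV, against 10.7 and 9.31 CPM in WT V (ratio of V to SV 436, 95% interval 120.4 to 3610.2, adjusted p = 3.3e-04). In SV *ungb*, *fgf3* and *cnih3* were at or near 0.

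Heat shock genes were lower in SV in 11 of 20 tested and higher in 0 (median log2 fold change -1.57), with 7 lower without WT SV replicate 2, and 7 lower and 4 higher with library totals. *hspb1* had 181 and 133 CPM in WT SV, against 3420.2 and 3200.4 CPM in WT V (log2 fold change -4.39 ± 0.42, adjusted p = 5.2e-05). *hspb7*, a cardiac small heat shock protein, had 11.14 and 7.13 CPM in WT SV, against 541 and 756 CPM in WT V (log2 fold change -6.4 ± 0.62, adjusted p = 5.5e-05). Immediate early genes, which respond to stimulation of cells within minutes, were higher in 7 of 30 and lower in 2, beside 19.4% and 16.2% of all genes, and took 1.78% and 0.591% of all counts in WT SV, against 0.767% and 0.40% in WT V. *fosb* had 1582 and 134 CPM in WT SV, against 291 and 82.8 CPM in WT V (log2 fold change 3.03 ± 0.8, adjusted p = 0.013), lost without WT SV replicate 1 and without either V library. In both tissues replicate 1 was above replicate 2 for *fosb*. The higher calls of this list were 2 without WT SV replicate 1, 11 without WT SV replicate 2 and 2 and 2 without WT V replicate 1 and WT V replicate 2. With library totals 17 were higher and 0 lower, and without the RUVs factor 1 was higher and 0 lower. Cell cycle genes were higher in 3 of 34 and lower in 1 (median 0.47), both below the shares of all genes. The 3 higher calls became 2, 1, 0 and 4 without WT SV replicate 1, WT SV replicate 2, WT V replicate 1 and WT V replicate 2.

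The genes named above were set beside the remaining WT chambers, with the same SV libraries as in the comparison with V. *myl7* was high in A as in V, with 10878 and 18369 CPM in WT A and 771 and 118 CPM in WT BA, and its difference between SV and BA did not pass the test (log2 fold change of SV over BA 0.16 ± 0.82, adjusted p = 0.92). *acta2*, *myh11a* and *elnb* were highest in BA, as given above. *thbs4b* and *gucy1a3* were highest in SV. *thbs4b* had 0.551 and 0.482 CPM in WT A and 8.02 and 8.43 CPM in WT BA, and *gucy1a3* had 0.651 and 0.161 CPM in WT A and 0.163 and 0.104 CPM in WT BA. *gucy1a3* exceeded A by a log2 fold change of 7.83 ± 0.63 (adjusted p = 5.6e-05) and BA by 8.49 ± 0.66 (adjusted p = 4.9e-05). *osr1*, in contrast, was higher in BA than in A, with 79.9 and 118 CPM in WT BA and 2.28 and 0.723 CPM in WT A. The enterocyte gene *chia.1* was low in both, with 0.0501 and 0.0536 CPM in WT A and 2.37 and 1.25 CPM in WT BA.

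In aco fish the same tissues were compared in libraries that the WT comparison did not use. The study reports that adult mutant hearts have effectively no A, and that their SV is enlarged with thicker walls. The aco comparison is therefore not a like-for-like repeat of the WT comparison. *nr2f1a* itself had 13.1 and 24.6 CPM in aco SV and 2.05 and 1.48 CPM in aco V, beside the WT values given above. The study states that the mutants still transcribe *nr2f1a*, so these levels are no check of the genotype. There 1888 genes were higher in SV (9.862%) and 2130 were lower (11.13%). Of the 3721 genes higher in WT SV 1440 (38.7%) were also higher in aco SV and 10 were lower, and the shared genes were 76.3% of those higher in aco SV. Of the 3111 genes lower in WT SV 1848 (59.4%) were also lower in aco SV and 2 were higher, and the shared genes were 86.8% of those lower in aco SV. Across the genes tested the log2 fold changes of WT and aco had a Pearson r of 0.727, where genes are not independent and the libraries share 1 fit.

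Thick filament genes were lower in 10 of 15 in WT and 10 in aco, and nuclear oxidative phosphorylation genes in 82 of 85 in WT and 81 in aco. With the WT count before the aco count, smooth muscle genes were higher in 16 and 17 of 37, collagens in 13 and 16 of 31, Hox genes in 15 and 16 of 21, and liver genes in 31 and 30 of 37. Enterocyte genes were higher in 25 of 28 in WT and 6 in aco, exocrine pancreas genes in 13 and 2 of 16, and interferon response genes in 14 and 1 of 32. Calls were fewer in aco among all genes too. There 9.862% of genes tested were higher and 11.13% lower, against 19.4% and 16.2% in WT. The 2 of 16 exocrine pancreas genes in aco were near that share of all genes. Whether a list differed between the genotypes was not tested. *acta2* had 409 and 3076 CPM in aco SV and 25.5 and 79.5 CPM in aco V, *myl7* had 424 and 96.9 CPM in aco SV and 8849 and 26011 CPM in aco V and *fabp2* had 3.11 and 0.481 CPM in aco SV and 0 and 0.0274 CPM in aco V. All 3 kept the direction seen in WT, and *fabp2*, at a low level in aco SV, was called higher there too (adjusted p = 8.9e-04).

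A test of whether the SV to V difference depended on genotype called 38 genes (0.198%), 34 with the more positive fold change in WT and 4 in aco. *cd36* had 20.6 and 23.7 CPM in WT SV, against 1.62 and 1.59 CPM in WT V, beside 0.115 and 0.12 CPM in aco SV and 4.6 and 3.15 CPM in aco V (log2 difference of the fold changes, WT minus aco, 8.75 ± 0.68, adjusted p = 9.7e-04). *cldn15la*, a claudin of gut epithelium, had 78.3 and 46.1 CPM in WT SV, against 0.0491 and 0.47 CPM in WT V, beside 1.4 and 0.289 CPM in aco SV and 0.554 and 0.274 CPM in aco V (log2 difference of the fold changes, WT minus aco, 7.34 ± 0.8, adjusted p = 0.0074). *apoa4b.1*, an apolipoprotein of enterocytes, had 289 and 386 CPM in WT SV, against 0.393 and 0.147 CPM in WT V, beside 1.28 and 3.68 CPM in aco SV and 0.0963 and 0.411 CPM in aco V (log2 difference of the fold changes, WT minus aco, 7.48 ± 0.85, adjusted p = 0.0085). All 3 were high in WT SV and low in aco SV. *fhl2b*, a LIM protein gene of heart muscle, had 4.6 and 2.33 CPM in WT SV, against 5.92 and 3.26 CPM in WT V, beside 0.0229 and 0.0722 CPM in aco SV and 6.28 and 12.4 CPM in aco V (log2 difference of the fold changes, WT minus aco, 7.38 ± 0.63, adjusted p = 0.0013), and it had 70.18 and 49.8 CPM in WT A. *itih1*, which stabilises hyaluronan, ran the other way, with 0.343 and 0.908 CPM in WT SV, against 3.14 and 2.94 CPM in WT V, beside 61.5 and 27.5 CPM in aco SV and 0.794 and 1.26 CPM in aco V (log2 difference of the fold changes, WT minus aco, -7.72 ± 0.74, adjusted p = 0.0027). In WT BA *itih1* had 1390 and 1327 CPM, far above its level in SV and V of either genotype. The count of 38 depended on the libraries and the model. Without WT SV replicate 1 it was 15, without WT SV replicate 2 it was 17, without WT V replicate 1 it was 4 and without WT V replicate 2 it was 19. It was 5 without the RUVs factor and 599 in DESeq2.

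**Figure D5:**
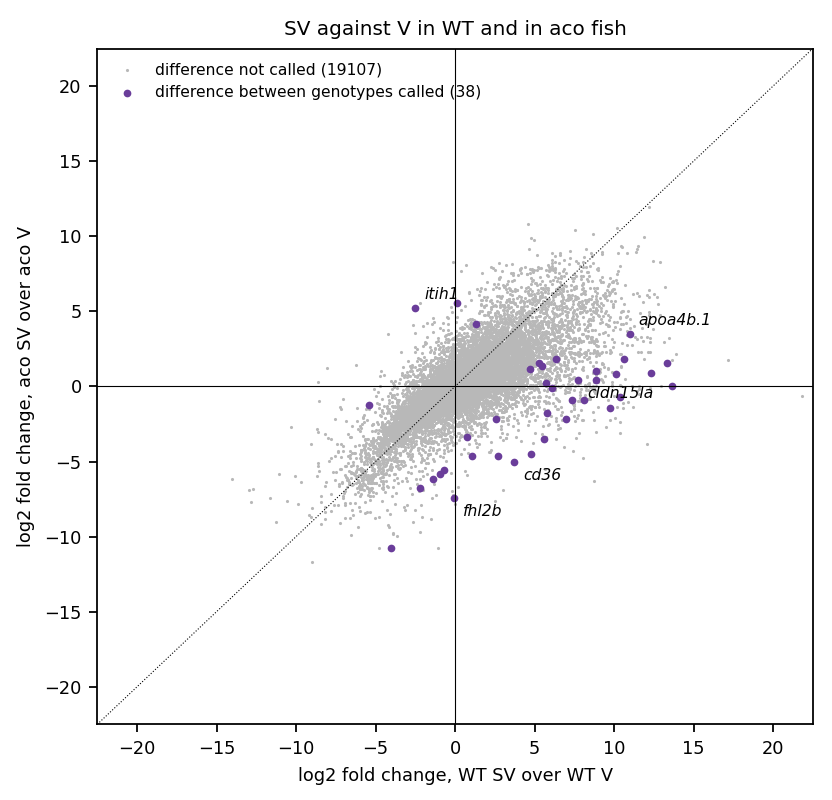
Each point is 1 gene at its fitted log2 fold change of SV over V in WT (x axis) and in aco fish (y axis), with the dotted line where both are equal. The 38 genes whose fold change differed between the genotypes (adjusted p under 0.05) are larger points; *cd36* and *fhl2b* lie below the line and *itih1* lies above it.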

How the data were processed

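RNA from 12 pools of adult zebrafish heart tissue, 2 per group, was sequenced by the authors. Per the study's methods, reads were trimmed with cutadapt and aligned with STAR to danRer11, uniquely aligned reads of libraries of mixed type were treated as single-end, and featureCounts assigned them to genes. Raw counts per gene as deposited were used for every test. The deposited FPKM values, which the authors scaled with DESeq2 size factors, were used only to rank genes by level. Columns with the fold changes and p-values of the authors' own comparisons, and their group means, were not used.

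Genes were filtered with filterByExpr, scaled by TMM and tested with edgeR 4.0.16 (quasi-likelihood, R 4.3.3) in 1 model of 6 groups and 1 RUVs factor over 12 libraries, with Benjamini-Hochberg adjustment across the 19145 genes tested (limma 3.58.1). A standard error is the log2 fold change divided by the square root of its F. The interaction compared the SV over V difference of WT with that of aco. The RUVs factor was computed from replicate groups. The method was also run on simulated counts in which few genes changed and no batch was present. That run cannot show how the method handles the scaling and batch limits of these data. DESeq2 1.42.0 was an alternative, with 16 others listed in the closing section (other scalings, filters, factors and sets of libraries, and each WT library left out), 1 of them added after seeing the data. Totals ranged from 28325098 to 60532949 counts per library. With 0 counts in a tissue, a fold was bounded with 3 counts per library, and with at most 3 counts in each library of the lower tissue, and not 0 in both, it was given as a ratio of counts with its exact 95% interval; both cover counting error only.

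Named genes were members of 54 gene lists, the 12 largest fitted changes in each direction among called genes with no overlap of libraries and at least 10 CPM in the higher tissue, the 10 called genes in each direction with the highest mean FPKM (provisional names left out, and mitochondrial genes from the levels), and the 5 genes with the smallest adjusted p of the interaction. Some genes these rules name are not reported here. The gene lists and the comparison were chosen with earlier results of these data known. As deposited, 13 gene names read as dates, 33 listed names were found under an older symbol and 160 were not found.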

Additional observations from a re-analysis of the deposited data

Results flagged for a closer look

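The difference between SV and V differed between WT and aco fish, by the interaction test, for 38 genes. The 5 with the smallest adjusted p were *cd36*, with a log2 difference of the fold changes (WT minus aco) of 8.75, *fhl2b*, with 7.38, *itih1*, with -7.72, *cldn15la*, with 7.34, and *apoa4b.1*, with 7.48. The number of such genes moved with the libraries and the model, as given above.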

How the results depend on the processing

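Of 232 named genes, none reversed direction under the 17 alternatives where it was called in the main fit or in the alternative. Some alternatives did not test every gene. A change of sign in a gene called in neither was not counted as a reversal. *fhl2b*, not called in the main fit, had a log2 fold change of -0.04 there and of -0.57 to 0.93 over the alternatives. Part of the 232 genes were picked as large or high called genes of the main fit. Reversals were therefore unlikely from the outset. Without WT V replicate 1, 27 lost their call, without WT SV replicate 1 20, without WT V replicate 2 17 (and 3 gained one) and without WT SV replicate 2 13. A test against a fold of 2 lost 19, no RUVs factor lost 14, the 8 WT libraries alone lost 11, library totals lost 9, the 4 libraries alone lost 9, DESeq2 lost 4, and the rest lost at most 2, the replicate blocks aside. Calls were gained for 4 genes with library totals, 2 with DESeq2 and 1 with the 8 WT libraries alone.

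Library totals gave 7116 genes higher and 1756 lower. A test against a fold of 2 called 4322 genes, 2424 higher and 1898 lower. Leaving out 1 library at a time gave 4065 to 5507 genes called, 1657 to 3025 higher and 2068 to 2482 lower. With DESeq2, 7696 genes were called. Whether libraries with the same replicate number share fish is not known. The correlation of same-numbered deviations in WT SV and WT V was -0.002, which cannot exclude a pairing. The RUVs factor was lower in replicate 1 than in replicate 2 in every WT group and higher in both aco groups. With a replicate block replacing the RUVs factor, 4855 genes were called, 2278 of them higher, and 19 named genes lost their call. With the block beside the factor 5643 were called and 9 named genes lost theirs.

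The 38 interaction genes became 10 with DESeq2 size factors, with a mean CPM of at least 1, without mitochondrially encoded genes and without erythrocyte genes, 5 without the RUVs factor, 2 with a replicate block in place of the factor, 9 with it beside the factor, 46 with library totals, 45 with no filter, 599 in DESeq2, and 4 to 19 without 1 library. The cause was not tested. With 2 libraries per group and no label for the batch, the fits rest on few degrees of freedom, and genes at a few counts in 1 tissue have wide intervals.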

Other observations

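Growth factor and guidance families had members on both sides of the comparison of SV with V, in the Wnt and FGF lists at shares near the 19.4% of all genes called higher and the 16.2% called lower. Of 52 tested genes of the TGF-beta and BMP pathway 15 were higher in SV and 9 lower (23 and 3 with library totals), and the higher genes numbered 7 without WT SV replicate 1 and 7 without WT V replicate 1, while the lower genes numbered 2 without WT SV replicate 2, 4 without WT V replicate 1 and 5 without WT V replicate 2. *bmp10*, a ligand known from trabecular heart muscle, had 0.0915 and 0.116 CPM in WT SV, against 3.59 and 3.55 CPM in WT V (log2 fold change -5.16 ± 0.56, adjusted p = 9.1e-05), opposite in direction to *bmp4*. Of 42 Wnt pathway genes 10 were higher and 9 lower (16 and 7 with library totals), with 6 higher without WT V replicate 1 and 5 lower without WT SV replicate 2. *sfrp1b*, a secreted Wnt antagonist, had 9.06 and 4.75 CPM in WT SV, against 0 and 0.264 CPM in WT V (log2 fold change 5.76 ± 1.12, adjusted p = 0.0025). *wnt4a*, a Wnt ligand, had 0.252 and 0.373 CPM in WT SV, against 3.86 and 8.51 CPM in WT V (log2 fold change -4.47 ± 1.18, adjusted p = 0.013), a call lost without either SV library and without WT V replicate 2.

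Of 26 FGF ligands and receptors 4 were higher and 4 lower, and with library totals 8 and 3. Of 49 semaphorin and axon guidance genes 13 were higher and 16 lower, with library totals 16 were higher and 11 lower, and the higher genes numbered 7, 8, 4 and 6 without WT SV replicate 1, WT SV replicate 2, WT V replicate 1 and WT V replicate 2. *sema3d*, a guidance cue that acts on endothelium and axons, had 21.1 and 15.7 CPM in WT SV, against 1.23 and 1.85 CPM in WT V (log2 fold change 3.59 ± 0.54, adjusted p = 5.2e-04). In the other WT chambers it had 1.53 and 1.58 CPM in WT A and 8.02 and 10.3 CPM in WT BA.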
